A study of Homo sapiens with 6 samples.

Results

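The genes described here are 39 members of the homologous recombination and Fanconi anemia pathways, chosen by name from a table of 19672 genes. All 39 were listed once in the table and all 39 had enough reads to be tested. Messenger RNA was sequenced from SW620, an established human colorectal cancer cell line, in 3 groups of 2 libraries. The groups were the C6 and C3 lines, each with stable lentiviral knockdown of DKC1 by shRNA, and a line carrying a non-targeting scrambled shRNA. All groups were kept under puromycin and received no other treatment. DKC1 encodes dyskerin, a pseudouridine synthase of the H/ACA particles and a part of telomerase. The labels do not say which DKC1 shRNA C6 and C3 carry or whether a line is a clone or a pool. The titles call the replicates biological, without saying whether they were separate cultures. P-values thus measure only the spread between libraries of a line.

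Homologous recombination repairs a broken chromosome by copying the intact sister. The broken ends are first resected to single strands, the single strands then pair with the sister with the help of BRCA2, and the joined molecules are finally dissolved or cut apart. The Fanconi anemia pathway unhooks crosslinks between the DNA strands: a core complex attaches ubiquitin to FANCD2 and FANCI, which bring in nucleases, and the break that results is handed to recombination. Loss of these genes leaves cells sensitive to crosslinking drugs such as platinum compounds, and many of them are transcribed mainly in S and G2 phase.

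DKC1 stood at 70.3 and 67.1 CPM (read counts scaled to library size, with TMM factors) in C6, 144 and 149 CPM in C3, and 320 and 315 CPM in scramble. For C3 replicate 1 the genotype label says control although the title gives a knockdown. It was kept in C3, and its DKC1 level of 144 CPM lay with the other C3 library. Library totals ran from 26077966 to 31021000 counts, and the members had between 165 counts (RAD51B) and 5284 counts (ATM) in a library. Colorectal epithelial markers summed to 9068 and 8961 CPM in C6, 6889 and 7086 CPM in C3, and 9139 and 8494 CPM in scramble. The sum was thus lowest in C3, and KRT8 was its largest part, with means of 4320 CPM in C6, 3540 CPM in C3 and 4590 CPM in scramble. Of the 10 markers tested, 7 were called lower and 1 (VIL1) higher in C3, against 11.9% and 12.4% of all genes. In C6 3 were called lower and 3 higher, against 22.8% and 23.8% of all genes. CDX1 had 0 counts in every library. Of 9 markers of blood, stromal and endothelial cells, 5 had 0 counts in every library, PTPRC, CD3E, COL1A2 and DCN among them, which allows up to between 0.0968 and 0.114 CPM per library by counting error alone. All 9 summed to 40.1 and 47.0 CPM in C6, 16.6 and 17.5 CPM in C3, and 26.5 and 23.5 CPM in scramble, and CD68 made up most of it, with 33.0 and 40 CPM in C6, 10.5 and 10.8 CPM in C3, and 16.8 and 15.2 CPM in scramble. CD68 was called higher in C6, while COL1A1 (−0.97) and PECAM1 (−1.47) were called lower in C6. The part of these markers in the results was not tested.

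The first question was how the pathway genes stood in C6, the line with less DKC1. In C6 15 of the 39 members fell against scramble and 1 rose, and 23 did not pass the test. The 15 were BARD1, BRCA2, BRIP1, RAD52, RAD54L, RBBP8, MRE11, NBN, FANCA, FANCL, FANCM, UBE2T, FANCD2, FANCI and EME1, and the gene that rose was FANCE. Members called lower were thus 38.5% of the list, against 22.8% of the 13299 genes tested. Members called higher were 2.56%, against 23.8% of all genes. The median log2 fold change of the members was −0.18 in C6, against −0.01 over all genes. A call here is a p under 0.05 from edgeR's quasi-likelihood test after Benjamini-Hochberg adjustment over all genes.

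In C3 1 member rose (XRCC2) and 0 fell, against 12.4% of all genes higher and 11.9% lower. At an unadjusted p under 0.05, 3 members were higher and 3 lower in C3 by edgeR, against 18.2% and 17.7% of all genes, and DESeq2 called 1 higher and 0 lower. Upper-quartile scaling called EME1 lower as well, a split of 1 higher and 1 lower. The members' median log2 fold change in C3 was −0.068, against 0.0013 over all genes. Both lines are set against the same scramble libraries. By edgeR 0 of 39 members were called higher in both and 0 lower in both, against 5.44% and 4.59% of all genes. At an unadjusted p under 0.05, 0 members were higher in both and 3 lower in both, against 7.99% and 7.04% of all genes, and DESeq2 called 0 in either direction.

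C6 was also compared with C3 directly. In that comparison 18 members were lower in C6 and 2 were higher, while 24.1% of all genes were lower and 25.1% higher. The 18 make up 46.2% of the members. Both directions together come to 51.3% of the members and 49.2% of all genes, so the share called was near the background, and the median log2 difference was −0.20. Of the 18, 13 were also called lower in C6 against scramble, but both comparisons use the same C6 libraries and are not independent. For 22 of the 39 members both C6 libraries lay below the other 4 libraries. Over all genes tested the same order held for 3507 of 13299 (26.4%). In the mean of both lines against scramble 9 members were lower and 1 was higher, against 16.3% and 16.6% of all genes. For all genes that is 2170 lower and 2212 higher, and with upper-quartile scaling 2773 lower and 1642 higher. With the 4 knockdown libraries pooled into 1 group, so that the difference between the lines counts as spread, 0 members were called.

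**Figure D1:**
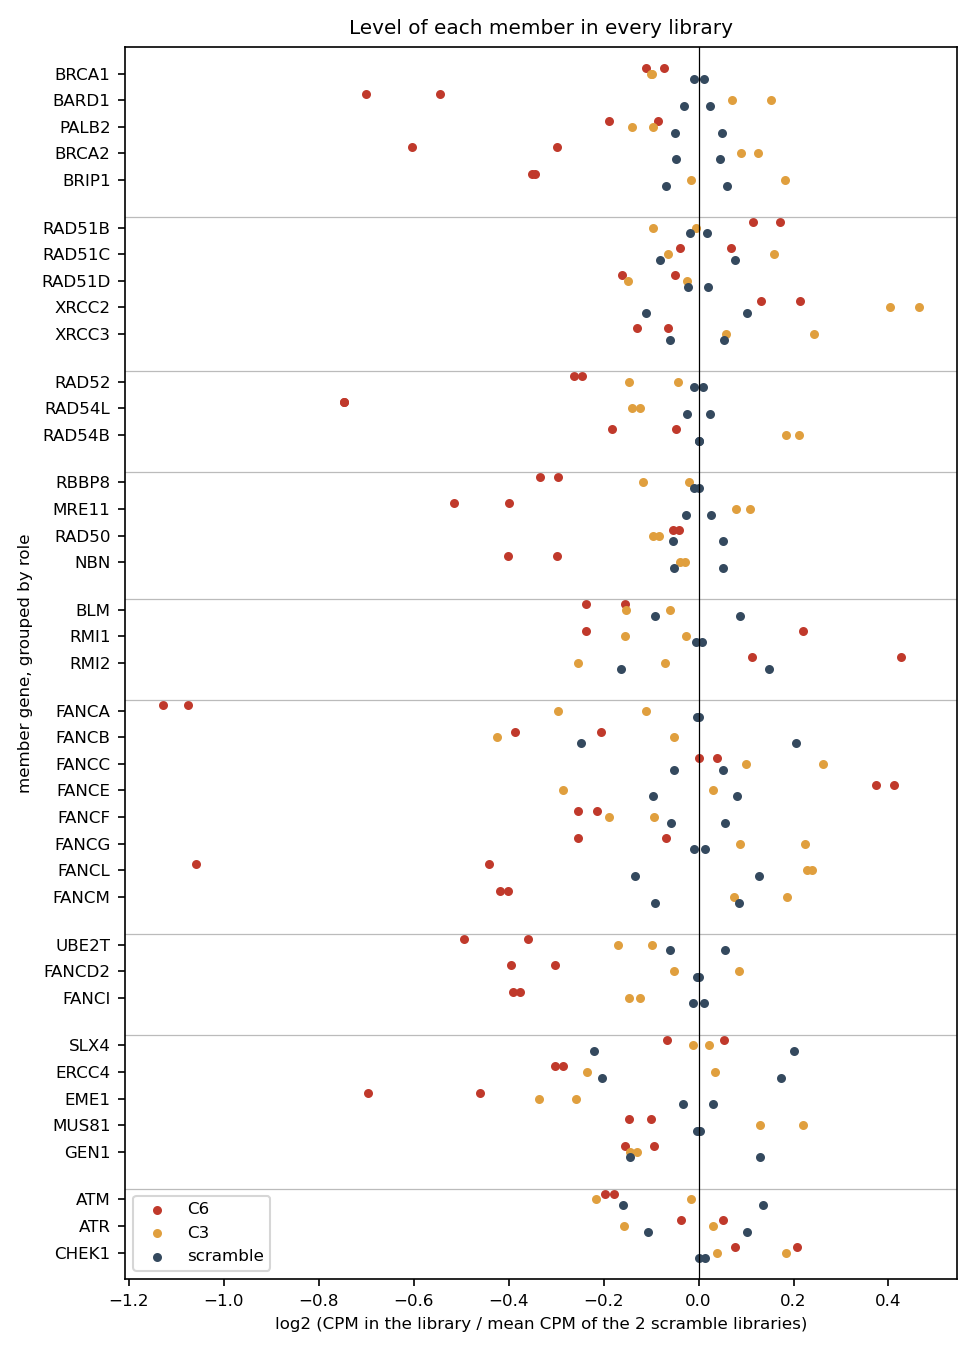
Each point is 1 library: its CPM over the mean of the scramble libraries, on a log2 axis, for the 39 members grouped by role, with C6 in red, C3 in orange and scramble in dark blue. Both C6 points of FANCA, RAD54L and BARD1 lie far to the left, as does 1 C6 point of FANCL, while those of BRCA1, RAD51C and CHEK1 lie among or near the other libraries.

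Summed over the 39 members, the level was 1634 and 1602 CPM in C6, 1846 and 1817 CPM in C3, and 1834 and 1882 CPM in scramble. The C6 sums lay below all 4 others. Most cell cycle genes called in C6 were also lower. In C3 17 of 39 S phase genes, 4 of 54 G2/M genes and 1 of 39 members rose. Over all genes 22.8% fell and 23.8% rose in C6, and 11.9% fell and 12.4% rose in C3. Of 39 S phase genes 20 (51.3%) fell and 5 (12.8%) rose in C6, while 2 (5.13%) fell and 17 (43.6%) rose in C3. Their sums were 3283 and 3241 CPM in C6, 4030 and 4125 CPM in C3, and 3574 and 3581 CPM in scramble. Of 54 G2/M genes 33 (61.1%) fell and 4 (7.41%) rose in C6, while 3 (5.56%) fell and 4 (7.41%) rose in C3. Their sums were 5496 and 5519 CPM in C6, 6339 and 6269 CPM in C3, and 6350 and 6435 CPM in scramble. Both lists were thus lowest in C6, and the S phase sums were highest in C3. Fewer cells in a phase and less RNA per cell cannot be told apart in these bulk libraries, and the part of the cell cycle in the members' levels was not tested.

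**Figure D2:**
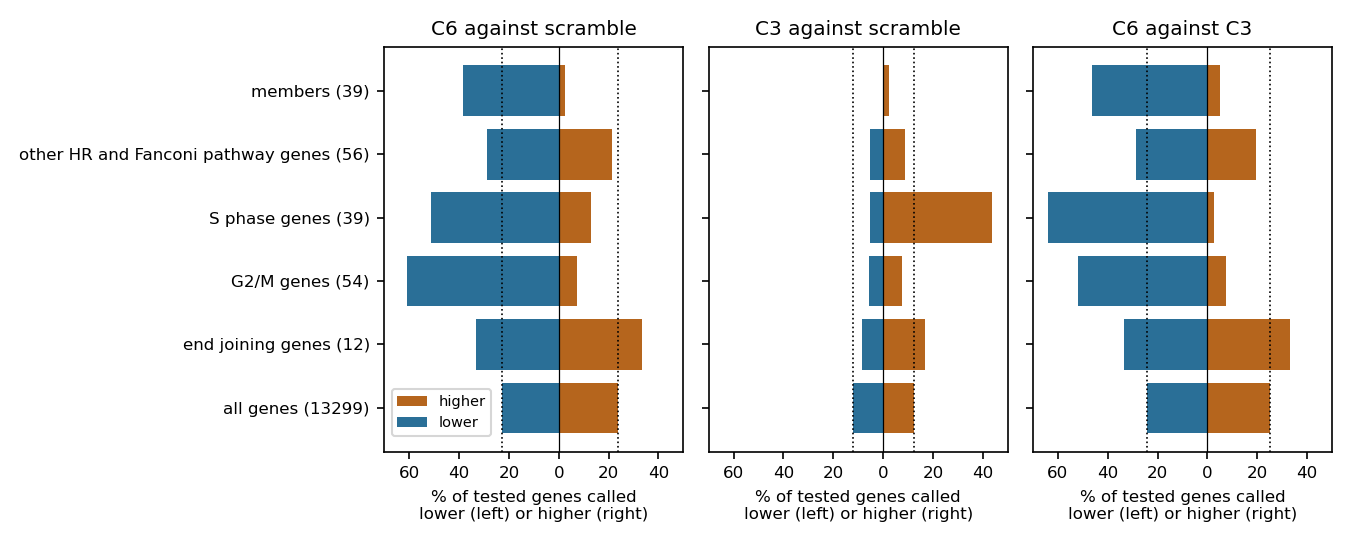
Bars give the percentage of tested genes called lower (blue, left) or higher (brown, right) at an adjusted p under 0.05 for each list and comparison, with dotted lines at the percentages for all 13299 genes. In C6 the members reach 38.5% lower and 2.56% higher, and in C3 0% lower and 2.56% higher.

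Promoters are printed for 4 members that moved, since E2F factors and the CCAAT-binding factor NF-Y are known to act on many cell cycle genes. RefSeq promoters (GRCh38.p14, 250 bases before to 50 after the annotated start) were found for 35 of the 39 members. The E2F motif was searched as TTTGGCGC, TTTCCCGC, TTTGCCGC or TTTCGCGC on both strands. It occurred in 5 of the 35 (14.3%: FANCA, FANCC, FANCD2, XRCC2 and GEN1), in 5.32% of the promoters of genes tested and in 3.31% of all promoters in the table. CCAAT on either strand occurred in 14 of the 35 (40%), in 36.5% of the promoters of genes tested and in 34.6% of all. Among members lower in C6 with a promoter, 2 of 13 held the E2F motif and 6 of 13 held CCAAT, and among the other members 3 of 22 and 8 of 22 did. The cell cycle element CHR, searched as TTTGAA or TTCGAA on both strands, occurred in 4 of the 35 (11.4%), in 11.1% of the promoters of genes tested and in 16.4% of all. A match is only a stretch of letters and does not show that a factor binds. Capitals mark the E2F motif in the first 3 sequences, which lie at chr16:89816598-89816897 (minus strand), chr3:10026187-10026486 (plus) and chr7:152676092-152676391 (minus). They mark CCAAT, on either strand, in the RAD54L promoter at chr1:46247438-46247737 (plus).
FANCA: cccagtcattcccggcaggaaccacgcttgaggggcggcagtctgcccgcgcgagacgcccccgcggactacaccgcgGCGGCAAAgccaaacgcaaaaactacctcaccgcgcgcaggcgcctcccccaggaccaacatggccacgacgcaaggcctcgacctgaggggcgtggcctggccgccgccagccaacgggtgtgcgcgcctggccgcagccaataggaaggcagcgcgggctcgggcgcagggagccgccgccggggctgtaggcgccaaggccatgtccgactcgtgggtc
FANCD2: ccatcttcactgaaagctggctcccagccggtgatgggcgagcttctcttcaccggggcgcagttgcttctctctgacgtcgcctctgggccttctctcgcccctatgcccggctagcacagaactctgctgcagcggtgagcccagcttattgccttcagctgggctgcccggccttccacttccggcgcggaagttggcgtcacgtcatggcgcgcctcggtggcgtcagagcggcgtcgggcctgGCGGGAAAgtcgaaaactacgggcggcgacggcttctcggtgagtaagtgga
XRCC2: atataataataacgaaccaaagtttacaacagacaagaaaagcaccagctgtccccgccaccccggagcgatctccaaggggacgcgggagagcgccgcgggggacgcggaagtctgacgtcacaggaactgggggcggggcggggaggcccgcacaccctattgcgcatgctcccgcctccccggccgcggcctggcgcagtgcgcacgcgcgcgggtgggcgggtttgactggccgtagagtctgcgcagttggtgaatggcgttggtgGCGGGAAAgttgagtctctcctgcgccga
RAD54L: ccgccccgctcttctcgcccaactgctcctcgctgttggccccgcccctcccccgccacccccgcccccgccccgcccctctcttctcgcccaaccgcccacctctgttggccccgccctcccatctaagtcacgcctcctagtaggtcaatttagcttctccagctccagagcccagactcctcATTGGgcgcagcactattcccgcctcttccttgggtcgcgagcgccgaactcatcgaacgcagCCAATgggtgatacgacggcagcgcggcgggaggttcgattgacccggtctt

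The roles below hold few genes each, and no role was tested as a set. Over all genes 22.8% were called lower in C6, and 11.9% lower and 12.4% higher in C3. By role, the complex that starts the pathway comes first. BRCA1 and its partner BARD1 form a ubiquitin ligase, PALB2 bridges BRCA1 to BRCA2, BRCA2 prepares single strands for pairing, and BRIP1 is a helicase that binds BRCA1. Of these 5, 3 fell in C6 and none, 0, was called in C3. BRCA1 (chr17:43044295-43170327) had 69.0 and 70.8 CPM in C6, 69.5 and 69.6 CPM in C3, and 75.1 and 74.0 CPM in scramble. Its knockdown libraries lay below both scramble libraries, but the log2 fold changes of −0.093 ± 0.067 (SE) in C6 and −0.10 ± 0.066 in C3 did not pass (adjusted p = 0.274 and 0.306). BARD1 (chr2:214725646-214809683) had 14.9 and 16.6 CPM in C6, 26.9 and 25.4 CPM in C3, and 24.6 and 23.7 CPM in scramble. It fell in C6 by 0.61 ± 0.10 on the log2 scale (adjusted p = 0.000155), and C6 and C3 did not overlap. Its 50 neighbours on chromosome 2 had a median of −0.48 in C6, and with that shift removed BARD1 stood at −0.13 against scramble (adjusted p = 0.331) and −0.23 against C3 (0.0716), neither past the test. BRCA2 (chr13:32315077-32400268) had 12.6 and 10.2 CPM in C6, 16.9 and 16.5 CPM in C3, and 15 and 16.0 CPM in scramble. BRCA2 thus reached 73.6% of scramble in C6 (−0.44 ± 0.12, adjusted p = 0.00801), and this call was lost without scramble replicate 2 (0.0656) or C6 replicate 2 (0.10). BRIP1 reached 78.6% of scramble in C6 (−0.35, adjusted p = 0.0112). The BRIP1 call was lost without scramble replicate 2 (0.0997), C6 replicate 1 (0.052) or C6 replicate 2 (0.0523). PALB2 stood at 91.0% of scramble in C6 and 92.2% in C3, neither past the test. BRCA1 and BARD1, which act as a pair, thus stood in C6 at 93.8% and 65.3% of scramble. BRCA1 has a partial copy nearby, and the sources used here do not give how reads shared with it were assigned.

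RAD51B, RAD51C, RAD51D, XRCC2 and XRCC3 form small complexes that act early in strand pairing. None of the 5 fell: XRCC2 rose in C3 and the other 4 passed in neither line against scramble. XRCC2 (chr7:152644776-152676141) had 54.8 and 58.0 CPM in C6, 69.0 and 66.1 CPM in C3, and 46.3 and 53.7 CPM in scramble. Both C3 libraries lay above all others, at 135% of scramble (0.43 ± 0.082 on the log2 scale, adjusted p = 0.00114). XRCC2 sits near the end of chromosome 7, where its 42 neighbouring genes had a median log2 fold change of 0.58 in C6 and 0.47 in C3. With that shift removed XRCC2 stood at −0.40 in C6 (adjusted p = 0.00131) and −0.03 in C3 (0.857). RAD51C (chr17:58692573-58735611) had 38.5 and 35.7 CPM in C6, 35.1 and 41.0 CPM in C3, and 38.7 and 34.7 CPM in scramble. The 3 groups of RAD51C overlapped throughout. RAD51B had 6.99 and 6.72 CPM in C6, 5.81 and 6.19 CPM in C3, and 6.13 and 6.29 CPM in scramble. RAD51D ranged from 47.2 to 53.5 CPM over the 6 libraries. XRCC3 was lower in C6 than in C3 (−0.25, adjusted p = 0.033), a call lost without C3 replicate 1 (0.32), C6 replicate 1 (0.0691) or C6 replicate 2 (0.139), and with DESeq2 (0.082). XRCC3 shares 1452 exonic bases with KLC1 on the other strand, and whether the counting used strand was not given in the sources used here.

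RAD52 anneals single strands, and RAD54L and RAD54B are motor proteins that act in pairing with the sister. RAD54L (chr1:46247688-46278473) had 10.9 and 10.9 CPM in C6, 16.6 and 16.8 CPM in C3, and 18.6 and 18.0 CPM in scramble. The C6 libraries lay below the other 4, at 59.6% of scramble, against 91.0% in C3. The fall in C6 was 0.75 ± 0.11 on the log2 scale (adjusted p = 4.42e-05), the largest fall of a member after that of FANCA. It was nearly as large against C3 (−0.61, adjusted p = 0.000239). RAD54L shares 566 exonic bases with LRRC41 on the other strand, which stood at −0.10 in C6 and was not called. Its neighbours on the chromosome had a median of 0.04 in C6. RAD52 stood at 83.8% of scramble in C6 (−0.25, adjusted p = 0.0282). The RAD52 call was lost without any 1 of the scramble or C6 libraries (adjusted p between 0.0769 and 0.103). RAD54B had 26.9 and 24.5 CPM in C6, 31.6 and 32.2 CPM in C3, and 27.8 and 27.8 CPM in scramble. RAD54B was lower in C6 than in C3 (−0.31, adjusted p = 0.00889), a call lost without C3 replicate 2 (0.0562) or C6 replicate 2 (0.0771), and it shares exons with FSBP on the same strand.

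End resection is begun by the MRE11 nuclease, which works with RAD50 and NBN as the MRN complex, and by its cofactor CtIP, encoded by RBBP8. Of the 4 genes 3 fell in C6 and none, 0, was called in C3. MRE11 (chr11:94415570-94512412) had 68.1 and 62.8 CPM in C6, 96.8 and 94.8 CPM in C3, and 91.5 and 88.2 CPM in scramble. Both C6 libraries lay below the rest and both C3 libraries above scramble. MRE11 fell in C6 by 0.46 ± 0.069 on the log2 scale (adjusted p = 6.71e-05), and C6 lay below C3 by −0.55 ± 0.069 (adjusted p = 8.86e-06). MRE11 shares 225 exonic bases with ANKRD49 on the other strand, which stood at −0.13 in C6 and was not called. NBN had 70.6 and 65.7 CPM in C6, 85.1 and 84.5 CPM in C3, and 89.9 and 83.7 CPM in scramble (−0.35 in C6, adjusted p = 0.000817). RAD50, the third subunit, had 105 and 104 CPM in C6, 102 and 101 CPM in C3, and 104 and 112 CPM in scramble. RAD50 was not called in either line (−0.051 ± 0.064 in C6, adjusted p = 0.544). The MRN subunits thus stood in C6 at 72.9% of scramble for MRE11, 78.5% for NBN and 96.5% for RAD50; the differences between these genes were not tested. RBBP8 had 114 and 111 CPM in C6, 129 and 138 CPM in C3, and 140 and 139 CPM in scramble. Its fall in C6 was 0.31 ± 0.063 on the log2 scale (adjusted p = 0.00079).

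BLM is a helicase that, with RMI1 and RMI2, dissolves joined molecules without crossing over. No member of this complex was called in either line against scramble. BLM (chr15:90717346-90816166) had 42.1 and 39.8 CPM in C6, 42.2 and 45 CPM in C3, and 49.8 and 44.0 CPM in scramble. The C6 libraries of BLM lay just below the others (−0.20 ± 0.084, adjusted p = 0.0677). With upper-quartile scaling BLM was called lower in C6 (adjusted p = 0.0218). RMI2 had 25.0 and 20.1 CPM in C6, 15.6 and 17.7 CPM in C3, and 20.6 and 16.6 CPM in scramble. RMI2 was higher in C6 than in C3 (0.44 ± 0.13, adjusted p = 0.013), but not without C6 replicate 1 (0.27, adjusted p = 0.171) or C3 replicate 1 (0.0974). RMI1 ranged from 19.1 to 26.2 CPM, and both of these values were C6 libraries.

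**Figure D3:**
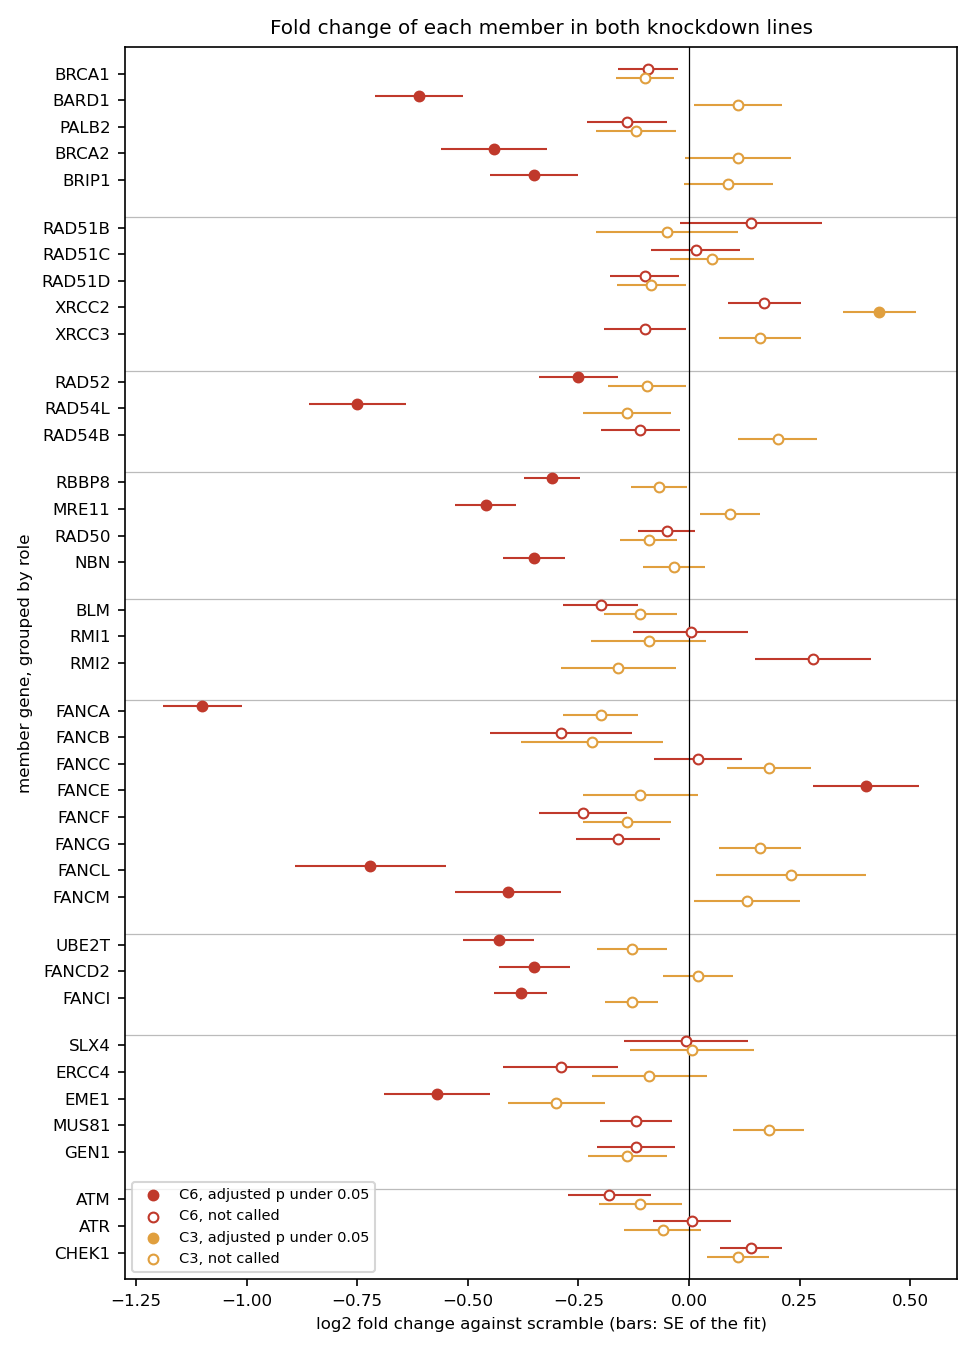
Points give the log2 fold change against scramble of each member in C6 (red) and C3 (orange), with bars of 1 SE, and filled points have an adjusted p under 0.05. Filled red points run from −1.10 (FANCA) to 0.40 (FANCE), and the only filled orange point is XRCC2 at 0.43.

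The Fanconi core complex is the ubiquitin ligase of the pathway: FANCL is the catalytic subunit, FANCM anchors the complex to DNA, and FANCA, FANCB, FANCC, FANCE, FANCF and FANCG build it up. Of these 8 genes 3 fell and 1 rose in C6, and 0 were called in C3. FANCA (chr16:89737549-89816647) had 22.3 and 21.5 CPM in C6, 43.5 and 38.3 CPM in C3, and 46.9 and 47.0 CPM in scramble. The C6 libraries were at 46.6% of scramble, the lowest share of any member, and the C3 libraries at 87.0%. FANCA fell by 1.10 ± 0.089 on the log2 scale in C6 (adjusted p = 1.19e-07), and C6 lay below C3 by −0.90 (adjusted p = 7.73e-07). Genes around it moved too: its 31 neighbours at the end of chromosome 16 had a median of −0.62 in C6 and 0.03 in C3. With that shift removed FANCA stood at −0.48 in C6 (adjusted p = 0.00052) and −0.26 against C3 (0.0268). FANCA shares 1402 exonic bases with ZNF276 on the other strand, which stood at −0.67 in C6 (adjusted p = 4.04e-05).

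FANCL (chr2:58159243-58241380) had 18.4 and 12 CPM in C6, 29.5 and 29.3 CPM in C3, and 27.3 and 22.8 CPM in scramble. The C6 libraries were the lowest and also the farthest apart. FANCL fell in C6 by 0.72 ± 0.17 on the log2 scale (adjusted p = 0.00793), and without C6 replicate 2 by 0.44 (adjusted p = 0.0213). FANCL shares 452 exonic bases with VRK2 on the other strand, which stood at −0.11 in C6 and was not called. FANCM had 9.80 and 9.92 CPM in C6, 14.9 and 13.8 CPM in C3, and 12.3 and 13.9 CPM in scramble. The FANCM fall in C6 (−0.41, adjusted p = 0.0127) was lost without scramble replicate 2 (0.11) or C6 replicate 1 (0.0587), while its difference between C6 and C3 (−0.54, adjusted p = 0.00168) held without each library. FANCE went the other way, with 18.0 and 18.5 CPM in C6, 14.2 and 11.4 CPM in C3, and 14.7 and 13.0 CPM in scramble. Both C6 libraries of FANCE lay above the other 4 (0.40 ± 0.12, adjusted p = 0.0156). That call was lost without scramble replicate 2 (0.134), C6 replicate 1 (0.0555) or C6 replicate 2 (0.0747), with DESeq2 (0.0509), and with the neighbour shift removed (0.29 on the log2 scale, adjusted p = 0.0698). FANCE was also higher in C6 than in C3 (0.51, adjusted p = 0.00293), though not without C3 replicate 2 (0.0515).

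The remaining core genes passed in neither line against scramble. FANCB had 15 and 17 CPM in C6, 18.9 and 14.6 CPM in C3, and 16.5 and 22.6 CPM in scramble, and its groups overlapped. FANCC had 25.1 and 25.8 CPM in C6, 26.9 and 30.1 CPM in C3, and 26.0 and 24.2 CPM in scramble. FANCF stood at 84.9% of scramble in C6 (adjusted p = 0.0559) and FANCG at 89.6% (0.182). With upper-quartile scaling FANCF was called lower in C6 (adjusted p = 0.0195). FANCG was lower in C6 than in C3 (−0.32, adjusted p = 0.0113), a call lost without C3 replicate 2 (0.12) or C6 replicate 2 (0.111).

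UBE2T, the ubiquitin-conjugating enzyme that serves FANCL, and its substrates FANCD2 and FANCI all fell in C6, 3 of 3, and 0 were called in C3. Of all genes 22.8% were lower in C6. UBE2T had 45.9 and 41.8 CPM in C6, 52.4 and 55.0 CPM in C3, and 61.2 and 56.5 CPM in scramble. It stood in between in C3 (91.2% of scramble, adjusted p = 0.246) and at 74.5% in C6 (−0.43, adjusted p = 0.000458). FANCD2 (chr3:10026437-10101932) had 36.6 and 39 CPM in C6, 51 and 46.4 CPM in C3, and 48.0 and 48.1 CPM in scramble. The C3 and scramble libraries of FANCD2 overlapped, and C6 lay below both, by 0.35 ± 0.08 against scramble (log2 scale, adjusted p = 0.00243). FANCD2 has closely related pseudogenes, and how reads shared with them were assigned was not given in the sources used here. FANCI had 103 and 104 CPM in C6, 122 and 124 CPM in C3, and 136 and 134 CPM in scramble. The 3 groups of FANCI did not overlap, and it fell in C6 by 0.38 ± 0.06 (log2 scale, adjusted p = 0.000115). FANCI in C3, at −0.13, did not pass (adjusted p = 0.123). FANCI shares 431 exonic bases with POLG on the other strand, which stood at −0.02 in C6 and was not called.

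**Figure D4:**
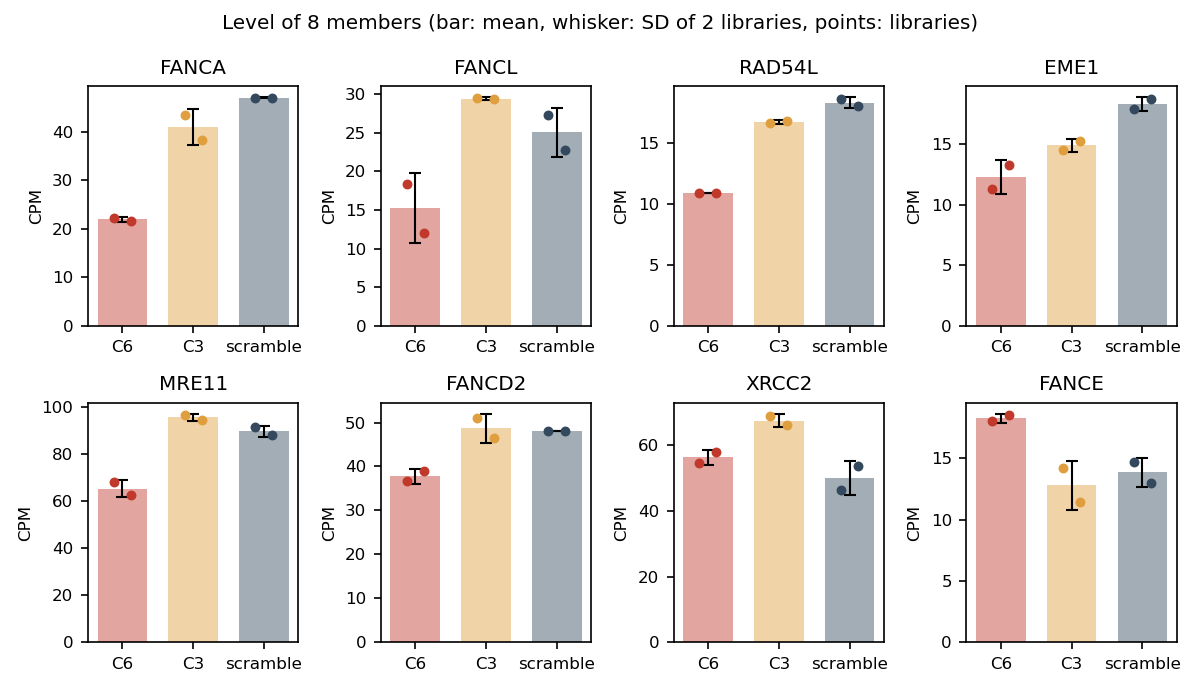
Bars give the mean CPM of 8 members in C6, C3 and scramble, with the SD of 2 libraries and each library as a point. The first 6 genes are lowest in C6, XRCC2 is highest in C3 and FANCE is highest in C6.

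The nucleases cut joined molecules and unhook crosslinks: MUS81 works with EME1, ERCC4 (XPF) is the crosslink nuclease, SLX4 is the scaffold that gathers them, and GEN1 is a resolvase. Of these 5, EME1 fell in C6 and 0 were called in C3. EME1 (chr17:50373229-50381483) had 11.3 and 13.3 CPM in C6, 14.5 and 15.3 CPM in C3, and 17.9 and 18.7 CPM in scramble. The groups of EME1 did not overlap. It fell by 0.57 ± 0.12 on the log2 scale in C6 (adjusted p = 0.000845), and in C3 it stood at −0.30 ± 0.11 (adjusted p = 0.0659). EME1 was the member closest to a call in both lines: it was called lower in C3 with upper-quartile scaling (adjusted p = 0.0414) and with the neighbour shift removed (0.0351). EME1 shares 246 exonic bases with LRRC59 on the other strand, which stood at 0.40 in C6. Its partner MUS81 (chr11:65859674-65867653) had 32.5 and 33.6 CPM in C6, 41.9 and 39.4 CPM in C3, and 36.1 and 35.9 CPM in scramble. MUS81 passed only between the lines (−0.30 in C6 against C3, adjusted p = 0.00628), and not without C3 replicate 1 (0.0775). MUS81 shares 72 exonic bases with CFL1 on the other strand, which averaged 604 CPM and stood at 0.04 in C6 and 0.37 in C3 (adjusted p = 0.618 and 0.000476). ERCC4, SLX4 and GEN1 passed in no comparison in the main fit. ERCC4 stood at 81.7% of scramble in C6 (adjusted p = 0.0826), SLX4 at 99.5% and GEN1 at 91.8%. With upper-quartile scaling ERCC4 was called lower in C6 (adjusted p = 0.0353).

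ATM and ATR are the kinases that sense breaks and exposed single strands, and CHEK1 carries the ATR signal that delays the cell cycle. None of the 3 was called in any comparison in the main fit. ATM was called lower in C6 with upper-quartile scaling (adjusted p = 0.0347), and CHEK1 higher in C6 with the neighbour shift removed (0.00701). ATM (chr11:108223067-108369102) had 151 and 153 CPM in C6, 171 and 149 CPM in C3, and 155 and 190 CPM in scramble. Its scramble libraries were farther apart than its group means. ATR ranged from 53.9 to 64.5 CPM over the libraries, with overlapping groups. CHEK1 had 127 and 116 CPM in C6, 113 and 125 CPM in C3, and 111 and 110 CPM in scramble. All 4 knockdown libraries of CHEK1 lay above scramble, at 110% in C6 and 108% in C3, and neither passed (adjusted p = 0.111 and 0.303).

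The position of the members was examined because neighbouring genes shifted together in parts of the genome. FANCA, BARD1 and XRCC2 were the members whose neighbours had a median log2 fold change beyond 0.3 in either direction in C6. With the shift removed in all genes, 13 of the 15 members lower in C6 kept their call (RAD52 and BARD1 lost it), and XRCC2, BRCA1 and MUS81 were called lower as well. RAD54L (−0.76), EME1 (−0.65), FANCL (−0.63) and FANCI (−0.52) were then the lowest members in C6. CHEK1 was called higher in C6 in that setting (0.26, adjusted p = 0.00701). RAD50 was called lower in C3 there (−0.21, adjusted p = 0.0252), where its neighbours had a median of 0.13. The share of all genes called with the shift removed is not given here, so these counts have no background beside them.

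**Figure D5:**
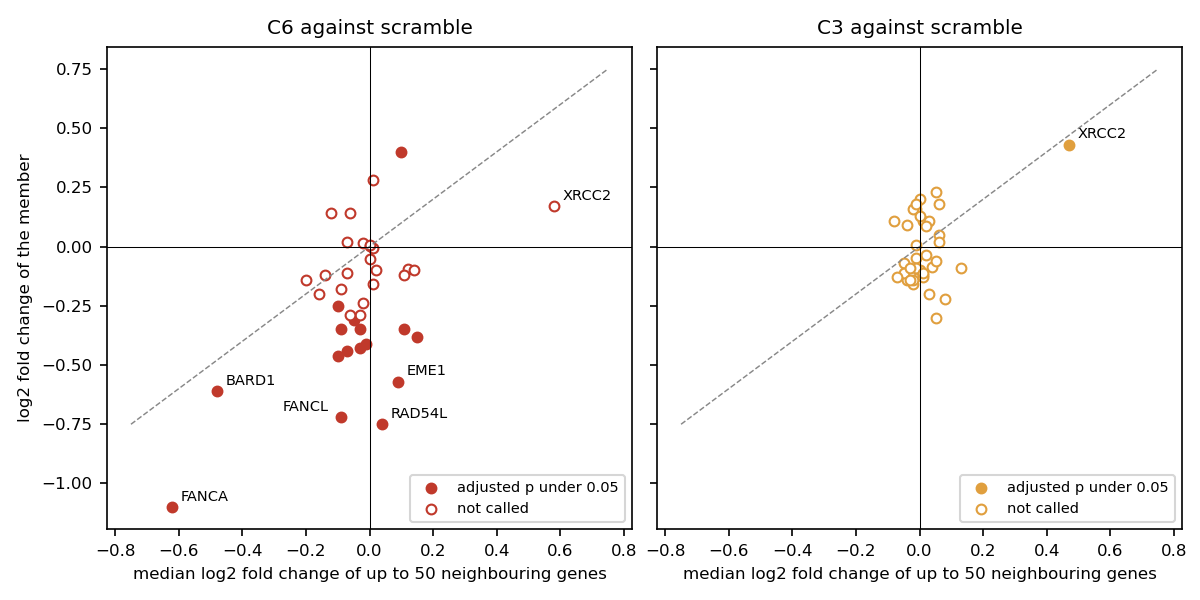
Each point is a member: its log2 fold change against scramble (vertical axis) over the median of up to 50 neighbouring genes (horizontal axis), in C6 on the left and C3 on the right, filled where the adjusted p was under 0.05 and with a dashed line of equality. In C6 FANCA, BARD1 and XRCC2 stand apart along the horizontal axis, in C3 XRCC2 does, and RAD54L, FANCL and EME1 are low in C6 with neighbours near 0.

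Under every alternative tried, 10 of the 15 members lower in C6 were still called: RAD54L, RBBP8, MRE11, NBN, FANCA, FANCL, UBE2T, FANCD2, FANCI and EME1. The other 5 are BARD1, BRCA2, BRIP1, RAD52 and FANCM, whose losses are given with their values, and FANCM and RAD52 also lost their call with DESeq2 (adjusted p = 0.0502 and 0.0785). Between C6 and C3 10 of the 18 lower members held under every alternative: BRCA2, BRIP1, RAD54L, MRE11, NBN, FANCA, FANCL, FANCM, FANCD2 and FANCI. RBBP8 lost that call without C3 replicate 2 (0.082), UBE2T without C3 replicate 2 (0.0636) or C6 replicate 2 (0.0716), and XRCC2 without C3 replicate 1 or C6 replicate 1 (0.104 each). For neither count of 10 is the share of all genes that held in the same way given here. In the mean of both lines RAD54L, FANCA, FANCI and EME1 were called under every alternative except the pooling of the lines, and RAD54L stood there at −0.44 (adjusted p = 0.00156). The other 5 lower members and XRCC2 lost that call without scramble replicate 1, at adjusted p between 0.0909 (UBE2T) and 0.218 (NBN).

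Other genes of the same pathways, 56 that are not members, were more even. In C6 16 of them fell and 12 rose (28.6% and 21.4%, close to 22.8% and 23.8% of all genes). In C3 3 fell and 5 rose (5.36% and 8.93%, against 11.9% and 12.4% of all genes). POLQ, the polymerase of an alternative end-joining route, had 14.7 and 16.2 CPM in C6, 23.8 and 22.1 CPM in C3, and 24.2 and 27.2 CPM in scramble. It fell in C6 (−0.73, adjusted p = 4.62e-05) and was lower in C6 than in C3 (−0.57). The checkpoint kinase CHEK2, whose gene has near-identical pseudogene copies, also fell in C6 (−0.70, adjusted p = 0.000151). SEM1, a small BRCA2-binding protein, and SHLD3, a shieldin subunit that limits resection, rose in both lines. SEM1 rose by 0.52 in C6 and 0.33 in C3, and SHLD3 by 0.90 in C6 and 0.51 in C3, with neighbours of both at a median of 0.42 in C6. With the neighbour shift removed, SEM1 in C6 (0.08, adjusted p = 0.494) and SHLD3 in C3 (0.45, adjusted p = 0.06) were not called.

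Among S phase genes the sliding clamp PCNA rose by 0.43 in C6 and 0.35 in C3, and the cyclin CCNE2 fell by 0.95 in C6 and 0.53 in C3. The replicative helicase subunit MCM5 rose in C3 by 0.59 and stood at 0.12 in C6, not called. The centromere protein CENPU fell in both lines, with neighbours at −0.46 in C6 and −0.54 in C3. With the neighbour shift removed, PCNA in C6 (0.15, adjusted p = 0.085) and CENPU in C3 (−0.08, adjusted p = 0.665) were not called. Among G2/M genes CKAP2 fell in C6 by 0.99, TACC3 by 1.08, HMGB2 by 0.47 and KIF20B by 0.60, and of these HMGB2 also fell in C3. The neighbours of CKAP2, TACC3 and HMGB2 had medians of −0.61, −0.76 and −0.55 in C6. With that shift removed HMGB2 stood at 0.07 in C6 and 0.04 in C3, neither called (adjusted p = 0.42 and 0.772), and CKAP2 stood at −0.36 and TACC3 at −0.32 in C6, both called. Of 12 end joining genes 4 fell and 4 rose in C6 (33.3% each, against 22.8% and 23.8% of all genes). In C3 1 fell and 2 rose (8.33% and 16.7%, against 11.9% and 12.4% of all genes). PAXX, an accessory factor of the route, rose in C6 by 0.73, and the ligase LIG4 fell by 0.42 with neighbours at −0.49. LIG4 stood at 0.06 with that shift removed (adjusted p = 0.672).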

How the data were processed

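The authors deposited a table of raw read counts per gene, per the file headers, for 6 libraries prepared with a stranded, paired-end mRNA kit, per the labels' protocols. The submitters' processing notes name Trimmomatic 0.38, HISAT2 2.1.0, StringTie 2.1.3b, DESeq2 and the build hg38. The assignment of reads to genes and the use of strand were not given in the sources used here.

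Members and lists were chosen with earlier results of these data known. Counts were fitted with edgeR 4.0.16 in R 4.3.3: TMM scaling, filterByExpr, and the robust quasi-likelihood test in all 6 libraries as 3 groups, with Benjamini-Hochberg adjustment over 13299 genes and a threshold of 0.05. CPM used TMM library sizes. The spread rests on 3 residual degrees of freedom. Replicates differed by more than counting noise in each group (chi-square per degree of freedom 8.30 in C6, 6.08 in C3 and 7.57 in scramble), so none was merged.

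Values in every library are given for members called in both lines, for the 6 with the largest change in each direction in the mean comparison, and for 1 central member of each role; others were added after their values were seen. From each other list up to 4 genes that had the smallest p in the mean of both lines could be named. Some items that the rule covers are not reported here. Alternatives were RLE and upper-quartile scaling, no filter or 1 CPM in 2 libraries, a replicate block, 2 groups only, the lines as 1 group, DESeq2 1.42.0, leaving out each library, and removal of a neighbour shift (the running median log2 fold change of 51 genes along the chromosome, the gene itself included, entered as an offset). Gene positions and promoters are from RefSeq GRCh38.p14, and exon overlaps from GENCODE. The fit was tested on simulated data.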

Additional observations from a re-analysis of the deposited data

Results flagged for a closer look

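For 20 members C6 and C3 differed by edgeR's quasi-likelihood test, Benjamini-Hochberg adjusted over all genes. That is 51.3% of the members, near the 49.2% of all genes. In 18 of them C6 was lower (46.2%, against 24.1% of all genes). The log2 differences were −0.95 for FANCL, −0.90 for FANCA, −0.73 for BARD1, −0.61 for RAD54L, −0.55 for BRCA2, −0.55 for MRE11 and −0.54 for FANCM. They were −0.44 for BRIP1, −0.37 for FANCD2, −0.32 for NBN, −0.32 for FANCG, −0.31 for RAD54B and −0.30 for MUS81. They were −0.29 for UBE2T, −0.26 for XRCC2, −0.25 for XRCC3, −0.25 for RBBP8 and −0.24 for FANCI. RMI2 (0.44) and FANCE (0.51) were higher in C6. Adjusted p ran from 7.73e-07 (FANCA) to 0.033 (XRCC3). With the neighbour shift removed BARD1 stood at −0.23 (adjusted p = 0.0716) and FANCA at −0.26 (0.0268). Line, shRNA and degree of DKC1 knockdown cannot be told apart in this design.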

How the results depend on the processing

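RLE scaling, no low-count filter and a filter of 1 CPM in 2 libraries changed no count of members. For members lower in C6 (15 called), upper-quartile scaling gave 19, with 27.7% of all genes lower in place of 22.8%, and DESeq2 gave 13. The members added by upper-quartile scaling were BLM, FANCF, ERCC4 and ATM. For C3 higher (1 called), removal of the neighbour shift gave 0. For C3 lower (0 called), upper-quartile scaling gave 1, the 2 groups alone 1 and removal of the neighbour shift 2, and these same settings gave 1 member lower in both lines each. For C6 higher (1 called), DESeq2 gave 0. With the knockdown libraries as 1 group the mean comparison called 0 higher and 0 lower. Leaving out each library gave 12 to 18 lower and 0 to 2 higher in C6, 0 to 0 lower and 1 to 1 higher in C3, 6 to 9 lower and 0 to 1 higher in the mean, and 14 to 18 lower and 1 to 3 higher in C6 against C3. It gave 0 to 0 members lower and 0 to 1 higher in both lines. Except for upper-quartile scaling in C6, the shares of all genes under these settings are not given here. XRCC2 changed sign when the neighbour shift was removed, at −0.40 in C6, −0.03 in C3 and −0.21 in the mean, since its neighbours were higher than it was. With the replicate number as a block, 15 members were lower in C6 and 8 in the mean, where BARD1 was lost (adjusted p = 0.0509). Same-numbered libraries did not deviate together (r of −0.047 to 0.064), so the block was not taken as a pairing. With 2 libraries a group, small changes of members with few counts, such as RAD51B, were not detectable at this depth.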

Other observations

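RTEL1, a helicase that limits recombination and protects telomeres, stood apart among the other pathway genes and was chosen after its values were seen. It had 11 and 0 counts in C6, 209 and 268 counts in C3, and 15 and 13 counts in scramble. That is 0.418 and 0 CPM in C6, 6.75 and 9.53 CPM in C3, and 0.557 and 0.484 CPM in scramble. By edgeR's quasi-likelihood test RTEL1 was higher in C3 than in scramble (log2 fold change 3.95 ± 0.53 (SE), adjusted p = 0.000678), a value that rests on few counts. TNFRSF6B, which lies beside it and shares a readthrough transcript with it, had 0 and 0 counts in C6, 3 and 38 counts in C3, and 0 and 2 counts in scramble.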
